A study of Mus musculus with 10 samples.

Results

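The genes described here are 6 genes of natriuretic peptide and cGMP signalling: the receptor genes Npr1, Npr2 and Npr3, the kinase gene Prkg1, and the phosphodiesterase genes Pde5a and Pde2a. They are 6 of 24454 genes in the count files and 6 of the 13568 genes that passed the filter on low counts. They were matched by gene symbol and joined to the counts by Entrez identifier. Npr3 was chosen by its counts in these same libraries, which were higher in mice without adipocyte STAT5, so its difference between genotypes is a description and carries no test. The other 5 genes were chosen for their place in the pathway.

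RNA-Seq was performed on brown adipose tissue (BAT) of 5 control and 5 Stat5Adipoq mice, with 1 library per mouse. All were males of 2 months on a C57BL/6N background that were fed ad libitum. Stat5Adipoq mice lack STAT5A and STAT5B in adipocytes, because floxed Stat5 is deleted by Cre under the Adipoq promoter, which is active in brown and in white adipocytes alike. The control group is labelled wild type, and the methods describe these mice as littermates that carry floxed Stat5 but no Adipoq-Cre.

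Natriuretic peptides are hormones of the heart and vessel wall that also act on fat. Their receptors NPR-A (Npr1) and NPR-B (Npr2) are membrane guanylyl cyclases that make cGMP, while NPR-C (Npr3) lacks the cyclase domain and clears the peptides from the extracellular space. In adipocytes, cGMP activates cGMP-dependent protein kinase (Prkg1), which promotes lipolysis and, through p38 kinase, the thermogenic programme of brown fat. Phosphodiesterases such as PDE5 (Pde5a) and PDE2 (Pde2a) hydrolyse cGMP and end the signal.

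The sequences just upstream of the Npr3 and Npr1 start sites are shown because the clearance receptor stood apart between the genotypes and the cyclase receptor NPR-A did not. Both are from RefSeq on GRCm38, run 5′ to 3′ on the minus strand, hold the 250 bases before the start and end at the base before it. The Npr3 window is chr15:11907372-11907621 and the Npr1 window is chr3:90465867-90466116.
Npr3: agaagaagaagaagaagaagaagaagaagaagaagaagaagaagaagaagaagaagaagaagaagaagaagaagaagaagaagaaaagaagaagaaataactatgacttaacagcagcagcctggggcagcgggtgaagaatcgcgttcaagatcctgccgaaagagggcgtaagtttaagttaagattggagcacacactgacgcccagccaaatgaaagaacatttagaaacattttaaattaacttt
Npr1: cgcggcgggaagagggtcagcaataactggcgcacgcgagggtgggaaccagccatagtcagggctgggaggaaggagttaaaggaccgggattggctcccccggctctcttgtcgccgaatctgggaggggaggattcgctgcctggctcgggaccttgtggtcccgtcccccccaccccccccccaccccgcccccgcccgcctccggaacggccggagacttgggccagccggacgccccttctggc
The Npr3 window opened with a run of GAA-type repeats of 84 bases, had a GC content of 38.8% and held 6 CG pairs. The Npr1 window had a GC content of 70.4% and 21 CG pairs. Over the 300-base promoter windows, the GC content and CG pairs were 39.0% and 6 for Npr3 and 69.7% and 26 for Npr1. The medians were 52.7% and 7 over the 300-base windows of 32851 promoters, a set that does not cover every chromosome. The STAT5-type palindrome TTCNNNGAA, which reads the same on both strands, occurred in none of the 11 promoter windows of the 6 genes and in 8.3% of that set. It is therefore not marked by capitals above, and its absence says only that these letters are not in these windows. The annotated Npr3 gene reaches to 11907837, so the whole Npr3 window lies inside the gene. The annotated Npr1 gene reaches to 90465928, so part of the Npr1 window lies inside that gene. The start in each case is that of the promoter entry, and counts per gene do not tell which start was used.

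The libraries held 8.49 to 19.51 M counts on genes in controls and 9.4 to 15.69 M in Stat5Adipoq mice. Values are given as CPM, the counts of a gene per M counts of its library, after scaling between libraries by the TMM method. Stat5a was at 105.3 ± 17.0 CPM in controls and at 17.1 ± 2.05 CPM in Stat5Adipoq mice (SD, n = 5), and Stat5b fell from 83.8 ± 5.51 to 21.8 ± 0.722 CPM, with edgeR adjusted p = 2e-07 and 3.9e-09. Markers of brown adipocytes were high in both genotypes, with a summed level of 18487.1 to 29314.8 CPM in controls and 20318.0 to 25697.0 CPM in Stat5Adipoq mice. The library of control replicate 3 stood apart, as its 8 skeletal muscle markers summed to 3521.0 CPM. They summed to 284.2 CPM in control replicate 5, to 4.35 to 53.6 CPM in the other controls and to 2.18 to 40.4 CPM in Stat5Adipoq mice. Over all 13568 tested genes, edgeR's quasi-likelihood test called 2.71% (368 genes) at an adjusted p under 0.05, with 1.4% higher and 1.31% lower in Stat5Adipoq mice. The median log2 fold change was 0.00.

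Npr3, the clearance receptor, was the one receptor gene of the family whose levels in Stat5Adipoq BAT lay apart from those in control BAT. Npr1 and Npr2, which make cGMP, overlapped between the genotypes, as did the kinase and both phosphodiesterases. Overlap was the usual case, since the genotypes did not overlap in 4.39% of all tested genes. Npr3 was picked for its rise, so this contrast with the other 5 genes is a description. Of the 5 genes other than Npr3, edgeR called 0, against 2.71% of all tested genes, and 0 had an unadjusted p under 0.05. DESeq2 also called 0 of these 5.

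Npr3 (Entrez 18162) lies on the minus strand of chromosome 15 at 11839896 to 11907837 (GRCm38), with 7.25 kb of exon sequence. Its counts were 1111, 908, 880, 1222 and 1096 in control replicates 1 to 5 and 1702, 2581, 2672, 1688 and 2123 in Stat5Adipoq replicates 1 to 5. Scaled for depth, the controls were at 106.3, 82.4, 105.8, 61.7 and 100.1 CPM, and the Stat5Adipoq mice at 142.6, 165.4, 246.6, 185.9 and 169.5 CPM. The genotypes did not overlap, and 36.3 CPM lay between the highest control and the lowest Stat5Adipoq mouse. Control replicate 4 was the lowest of all 10 mice and Stat5Adipoq replicate 3 the highest. The means were 91.3 ± 19.1 and 182.0 ± 39.3 CPM (SD, n = 5), and the coefficient of variation was 21.0% in controls and 21.6% in Stat5Adipoq mice.

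The log2 fold change of Npr3 was 1.0 (SE 0.17, 95% limits 0.64 to 1.36), or 2.0-fold with limits of 1.56 and 2.57. Of all tested genes, 2.34% were higher by at least 1.5-fold and 2.35% were higher in every Stat5Adipoq mouse than in any control. It ranked 21st from the top among the 10152 tested genes with at least 50 counts on average. Without control replicate 4 the log2 fold change was 0.88, without Stat5Adipoq replicate 3 it was 0.86, and without control replicate 3 or 5, the libraries with the highest muscle markers, it was 1.06 or 1.04. Since the gene was picked for this difference, these values describe it and support nothing further. In bulk tissue, more cells of a type and more RNA per cell cannot be told apart, so the level of Npr3 in adipocytes alone is not given by these values.

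**Figure D1:**
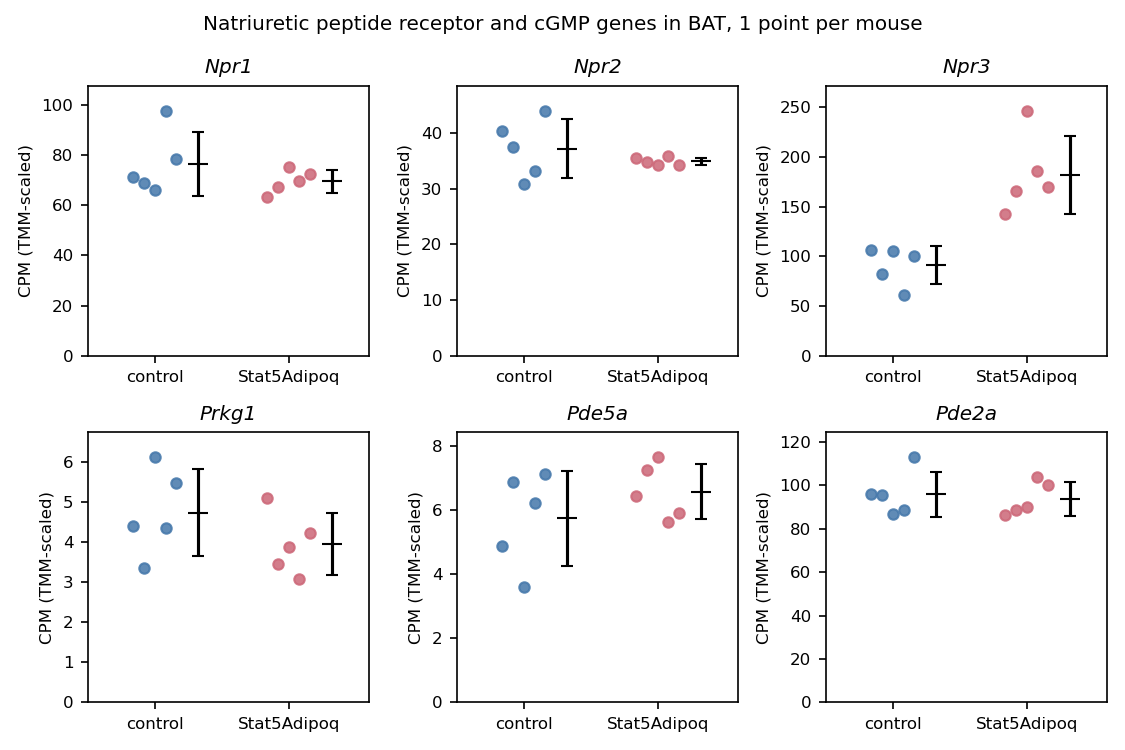
CPM (TMM-scaled, vertical axis from 0) of the 6 genes in control and Stat5Adipoq BAT, with 1 point per mouse and the mean ± SD of 5 mice beside each group. For Npr3 the lowest Stat5Adipoq mouse (142.6 CPM) lies above the highest control (106.3 CPM), while the groups overlap in the other 5 panels.

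Npr1 encodes NPR-A, the receptor for atrial and B-type natriuretic peptide. It lies on the minus strand of chromosome 3 at 90450591 to 90465928 (Entrez 18160, 4.07 kb of exon). Controls were at 71.2, 68.8, 66.1, 97.7 and 78.4 CPM and Stat5Adipoq mice at 63.3, 67.2, 75.1, 69.6 and 72.4 CPM. The groups overlapped, and the highest value belonged to control replicate 4, the mouse with the lowest Npr3. The means were 76.4 ± 12.7 and 69.5 ± 4.59 CPM (SD, n = 5), and the log2 fold change was -0.14 (SE 0.1, 95% limits -0.36 to 0.08). The edgeR adjusted p was 0.56, and the exact two-sided permutation p was 0.33 (0.53 after adjustment over the 5 genes), where 5 mice against 5 allow no p below 0.0079. Without control replicate 4 the log2 fold change was -0.04.

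Npr2 encodes NPR-B, the receptor for C-type natriuretic peptide. It lies on the plus strand of chromosome 4 at 43629015 to 43651437 (Entrez 230103, 3.66 kb of exon). Controls were at 40.3, 37.5, 30.8, 33.2 and 44.0 CPM and Stat5Adipoq mice at 35.4, 34.7, 34.2, 35.8 and 34.3 CPM. All Stat5Adipoq values lay inside the range of the controls. The coefficient of variation was 1.93% in Stat5Adipoq mice and 14.3% in controls, a difference in spread that was not tested. The means were 37.1 ± 5.32 and 34.9 ± 0.672 CPM (SD, n = 5), and the log2 fold change was -0.09 (SE 0.09, 95% limits -0.28 to 0.1). The edgeR adjusted p was 0.7 and the exact permutation p was 0.42 (0.53 adjusted over the 5 genes).

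Levels of different genes were compared per length, as CPM per kb of exon. In controls Npr1 stood at 18.8 ± 3.13, Npr3 at 12.6 ± 2.64 and Npr2 at 10.1 ± 1.45 CPM per kb. Every control Npr1 value (16.3 to 24.0) was above every control Npr3 value (8.52 to 14.7), while Npr3 and Npr2 overlapped. In Stat5Adipoq mice the order of the first 2 was the other way round. Npr3 stood at 25.1 ± 5.42 CPM per kb (19.7 to 34.0), above every Npr1 value (15.6 to 18.5, mean 17.1 ± 1.13), and Npr2 was at 9.53 ± 0.184 CPM per kb.

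The ratio of Npr3 to Npr1 per kb was 0.838, 0.672, 0.898, 0.355 and 0.717 in controls and 1.26, 1.38, 1.84, 1.5 and 1.31 in Stat5Adipoq mice. All controls were below 1 and all Stat5Adipoq mice above it. The mean ratio was 0.696 ± 0.211 in controls and 1.46 ± 0.231 in Stat5Adipoq mice, a 2.1-fold difference that rests on Npr3 and is therefore a description. Npr3 made up 20.5% to 37.2% of the 3 receptors per kb in controls and 43.8% to 55.0% in Stat5Adipoq mice. The sum of both cyclase receptors was 28.9 ± 3.33 CPM per kb in controls and 26.6 ± 1.02 CPM per kb in Stat5Adipoq mice. The side of 1 on which a ratio falls depends on the Npr3 transcript assumed. RefSeq lists 3 Npr3 transcripts, of 1.97 to 6.89 kb, and with the shortest transcript of each gene the mean ratio was 2.56 ± 0.777 in controls and 5.37 ± 0.85 in Stat5Adipoq mice, so that Npr3 stood above Npr1 in both. The share of Npr3 in the 3 receptors was then 48.7% to 68.5% in controls and 74.2% to 81.8% in Stat5Adipoq mice. The 2.1-fold difference between genotypes was the same with either length, because both genotypes were divided by the same lengths. Whether the genotypes differ in the Npr3 transcripts they use was not tested.

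**Figure D2:**
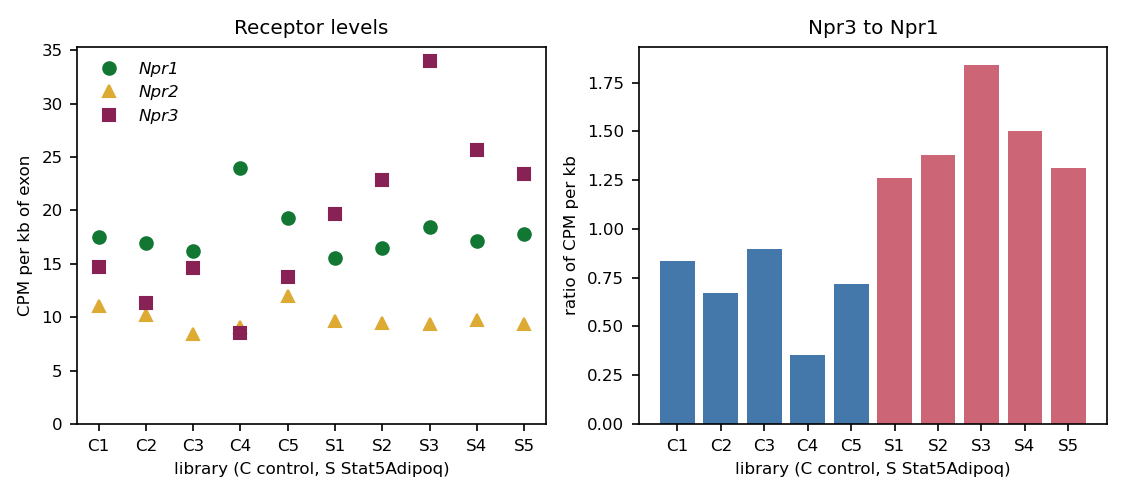
Left, CPM per kb of exon of Npr1, Npr2 and Npr3 in each library (C, control; S, Stat5Adipoq; 1 to 5, replicates). Right, bars from 0 give the ratio of Npr3 to Npr1 per kb in each library, at 0.355 to 0.898 in controls and 1.26 to 1.84 in Stat5Adipoq mice.

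Prkg1, Pde5a and Pde2a, which act on cGMP once it is made, overlapped between the genotypes, and none passed the test. Prkg1 encodes cGMP-dependent protein kinase I and lies on the minus strand of chromosome 19 at 30564487 to 31765268 (Entrez 19091, 7.38 kb of exon). Controls were at 4.4, 3.36, 6.13, 4.35 and 5.48 CPM and Stat5Adipoq mice at 5.11, 3.46, 3.88, 3.08 and 4.23 CPM. The highest control and the lowest Stat5Adipoq mouse marked the ends of the range, and the rest were mixed. The means were 4.74 ± 1.08 and 3.95 ± 0.779 CPM (SD, n = 5), and the log2 fold change was -0.25 (SE 0.19, 95% limits -0.66 to 0.16). The edgeR adjusted p was 0.59 and the exact permutation p was 0.23 (0.53 adjusted over the 5 genes). Prkg1 had 28 to 86 counts per library, and its coefficient of variation was 22.8% in controls and 19.7% in Stat5Adipoq mice.

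Pde5a encodes the cGMP-specific phosphodiesterase that is the target of sildenafil. It lies on the plus strand of chromosome 3 at 122729158 to 122859374 (Entrez 242202, 6.94 kb of exon). Controls were at 4.88, 6.89, 3.61, 6.21 and 7.12 CPM and Stat5Adipoq mice at 6.45, 7.24, 7.66, 5.62 and 5.91 CPM. The highest values, in Stat5Adipoq replicates 2 and 3, lay just above the highest control. The means were 5.74 ± 1.48 and 6.58 ± 0.866 CPM (SD, n = 5), and the log2 fold change was 0.19 (SE 0.18, 95% limits -0.2 to 0.57). The edgeR adjusted p was 0.69 and the exact permutation p was 0.31 (0.53 adjusted over the 5 genes). Pde5a had 30 to 123 counts per library, and without control replicate 3, the lowest of the 10, its log2 fold change was 0.07.

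Pde2a encodes a phosphodiesterase that hydrolyses both cGMP and cAMP and is stimulated by cGMP. It lies on the plus strand of chromosome 7 at 101421691 to 101512829 (Entrez 207728, 4.67 kb of exon). Controls were at 96.1, 95.4, 86.7, 88.6 and 113.0 CPM and Stat5Adipoq mice at 86.3, 88.4, 89.9, 103.8 and 99.9 CPM. The groups overlapped over most of their range, and control replicate 5 was the highest. The means were 95.9 ± 10.4 and 93.7 ± 7.71 CPM (SD, n = 5), and the log2 fold change was -0.04 (SE 0.08, 95% limits -0.21 to 0.14). The edgeR adjusted p was 0.9 and the exact permutation p was 0.7 (0.7 adjusted over the 5 genes). These limits leave room for a rise of at most 1.1-fold and a fall to no less than 0.865 of the control level.

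Per kb of all exons, Pde2a was the most abundant of the 6 genes in controls, at 20.5 ± 2.22 CPM per kb, and overlapped with Npr1, the next in order. Pde5a and Prkg1 were the lowest in both genotypes. Pde5a stood at 0.828 ± 0.213 and Prkg1 at 0.643 ± 0.146 CPM per kb in controls, where they overlapped. In Stat5Adipoq mice Pde5a was at 0.948 ± 0.125 and Prkg1 at 0.536 ± 0.106 CPM per kb, without overlap. With the shortest transcripts Prkg1 came before Pde5a in both genotypes. In Stat5Adipoq mice Npr3 (19.7 to 34.0 CPM per kb) came before Pde2a (18.5 to 22.2 CPM per kb), although their values overlapped. With the shortest transcripts Npr3 came first in both genotypes without overlap, at 46.3 ± 9.72 CPM per kb against 24.1 ± 2.61 for Pde2a in controls and 92.4 ± 19.9 against 23.6 ± 1.94 in Stat5Adipoq mice.

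It is not given in the sources used here whether strand was taken into account in counting. How reads were assigned where members overlap genes on the opposite strand, or whether they were left out, is therefore not known. Gm5144 lies opposite 4.43% of Npr3 exon bases and had 12 to 34 counts per library, against at least 880 for Npr3. Gm16048 lies opposite 9.89% of Npr1 exon bases and Gm12473 opposite 1.61% of those of Npr2. Pde2a overlaps Arap1 on the same strand over 3.21% of its exon bases, and 2.52% of its 50-base words occur in transcripts of other genes. The receptor transcripts shared none of theirs.

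The wider pathway was followed through a list of 62 further genes, of which 42 were tested and 20 had too few counts, at most 8 in any library. Among the 42, 3 rose and 0 fell in Stat5Adipoq BAT, or 7.14% called against 2.71% of all tested genes. The genes that rose were Abcc4, an exporter of cyclic nucleotides; Ide, an insulin-degrading enzyme that also cleaves natriuretic peptides; and Csrp2, a LIM protein linked to cGMP-dependent kinase. At an unadjusted p under 0.05 there were 9, of which 7 were higher and 2 lower, against 15.2% of all tested genes. The median log2 fold change was 0.01, against 0.00 for all tested genes, and 21 of the 42 were above 0, against 49.2% of all tested genes. In 5 genes (Abcc4, Ide, Csrp2, Mme and Pde6d) the genotypes did not overlap, all higher in Stat5Adipoq mice, against 4.39% of all tested genes.

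Genes of the peptides themselves were at or near 0 in BAT. Nppa, which encodes atrial natriuretic peptide, had 0 to 4 counts per library, Nppb 0 in all libraries and Nppc 0 or 1. Ostn, which encodes osteocrin, a peptide that binds NPR-C, had 3 counts in control replicate 3, the library with the highest muscle markers, and 0 in the other 9. A count of 0 allows up to 3 counts, which is 0.154 to 0.353 CPM here and covers counting error only. The other membrane guanylyl cyclases were also below the filter, with at most 6 counts for Gucy2g and 4 for Gucy2d, so NPR-A and NPR-B were the membrane cyclases of the list that could be measured.

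Of the enzymes that process or degrade the peptides, Ide stood at 214.7 ± 10.1 CPM in controls and at 252.9 ± 6.37 CPM in Stat5Adipoq mice (SD, n = 5), a log2 fold change of 0.24 (SE 0.05, edgeR adjusted p = 0.026). The controls reached 230.8 CPM and the Stat5Adipoq mice began at 245.9 CPM. This call was lost in 8 of 17 alternative analyses, with the adjusted p at most 0.084: with the replicate number as a block, and without control replicates 1, 2 or 4 or Stat5Adipoq replicates 2, 3, 4 or 5. Mme, which encodes neprilysin, the main peptidase of natriuretic peptides, was at 315.8 ± 14.2 and 354.4 ± 14.3 CPM, with a log2 fold change of 0.17 and an edgeR adjusted p of 0.13. DESeq2 gave Mme an adjusted p of 0.03.

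Soluble guanylyl cyclase, which makes cGMP in answer to nitric oxide, had 3 tested subunit genes. None of them was called, against 2.71% of all tested genes. Gucy1a3 was at 12.3 ± 0.914 and 11.7 ± 2.31 CPM and Gucy1b3 at 9.78 ± 1.84 and 10.2 ± 1.84 CPM in controls and Stat5Adipoq mice. Of the nitric oxide synthases, Nos3, the endothelial form, was at 52.4 ± 7.59 and 43.1 ± 3.53 CPM (log2 fold change -0.28, unadjusted p = 0.013 and edgeR adjusted p = 0.17). Nos2, the inducible form, was at 10.9 ± 2.62 and 11.5 ± 2.83 CPM (edgeR adjusted p = 0.9). Endothelial markers as a list summed to 1013.0 to 1184.1 CPM in controls and 1049.2 to 1280.2 CPM in Stat5Adipoq mice. Of these markers 0 of 10 were called, against 2.71% of all tested genes, with 9 above and 1 below 0.

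Among 9 further phosphodiesterases that were tested, 0 were called, against 2.71% of all tested genes. Their log2 fold changes ran from -0.27 to 0.74. Pde3b, which is inhibited by cGMP and hydrolyses mainly cAMP in adipocytes, was the most abundant named one in CPM, at 409.0 ± 55.1 in controls and 353.7 ± 35.6 in Stat5Adipoq mice (log2 fold change -0.21, edgeR adjusted p = 0.33). Pde6d, which encodes a prenyl-binding chaperone rather than a catalytic subunit, was at 11.0 ± 0.5 and 12.9 ± 0.588 CPM (log2 fold change 0.22, edgeR adjusted p = 0.16). Its groups did not overlap, but it was not called. Prkg2, which encodes the other cGMP-dependent kinase, was at 0.672 ± 0.172 and 0.516 ± 0.254 CPM (edgeR adjusted p = 0.72).

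Abcc4 encodes MRP4, a membrane pump that carries cAMP and cGMP out of cells. Controls were at 37.2, 44.9, 31.3, 32.8 and 36.6 CPM and Stat5Adipoq mice at 59.2, 60.7, 58.6, 50.4 and 59.2 CPM. The groups did not overlap, and 4 of the 5 Stat5Adipoq mice lay within 58.6 to 60.7 CPM. The means were 36.6 ± 5.3 and 57.6 ± 4.09 CPM (SD, n = 5), and the log2 fold change was 0.66 (SE 0.09, 95% limits 0.46 to 0.86, edgeR adjusted p = 0.0032). The call held in all 17 alternative analyses, with log2 fold changes of 0.61 to 0.74 and adjusted p of 1.4e-08 to 0.013. The related exporter Abcc5 was at 46.1 ± 7.63 and 53.0 ± 5.91 CPM, with an edgeR adjusted p of 0.45.

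Of 11 substrates and partners of cGMP-dependent kinase, Csrp2 was the one called, against 2.71% of all tested genes. It was at 37.0 ± 1.63 and 46.1 ± 3.75 CPM (log2 fold change 0.32, SE 0.06, edgeR adjusted p = 0.023). This call was lost in 6 of 17 alternatives, with the adjusted p at most 0.07: without composition scaling, with the replicate block, and without control replicates 2 or 4 or Stat5Adipoq replicates 2 or 3. Rgs2, a brake on G protein signalling, varied widely between controls, from 89.6 to 273.2 CPM, with means of 183.2 ± 71.8 and 266.0 ± 31.6 CPM (log2 fold change 0.54, edgeR adjusted p = 0.3). Itpr1, a calcium release channel, was at 339.4 ± 17.6 and 357.0 ± 19.9 CPM (edgeR adjusted p = 0.61). The lowest log2 fold change of the whole list was that of Kcnma1, at -1.82, a gene named after its values were seen. Its counts were 18 in control replicate 3, the library with the highest muscle markers, and 0 to 6 in the other 9.

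Downstream genes of lipolysis and p38 signalling gave 0 calls of 8, against 2.71% of all tested genes. Lipe, which encodes hormone-sensitive lipase, was at 1712.5 ± 84.4 and 1711.3 ± 114.2 CPM (edgeR adjusted p = 1.0). Mapk14, which encodes p38α, was at 118.6 ± 6.57 and 133.7 ± 15.4 CPM, with a log2 fold change of 0.17 and an edgeR adjusted p of 0.32. Ucp1, the uncoupling protein of brown fat, ranged from 5399.7 to 13824.6 CPM in controls and from 7839.6 to 12654.7 CPM in Stat5Adipoq mice (edgeR adjusted p = 0.69).

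**Figure D3:**
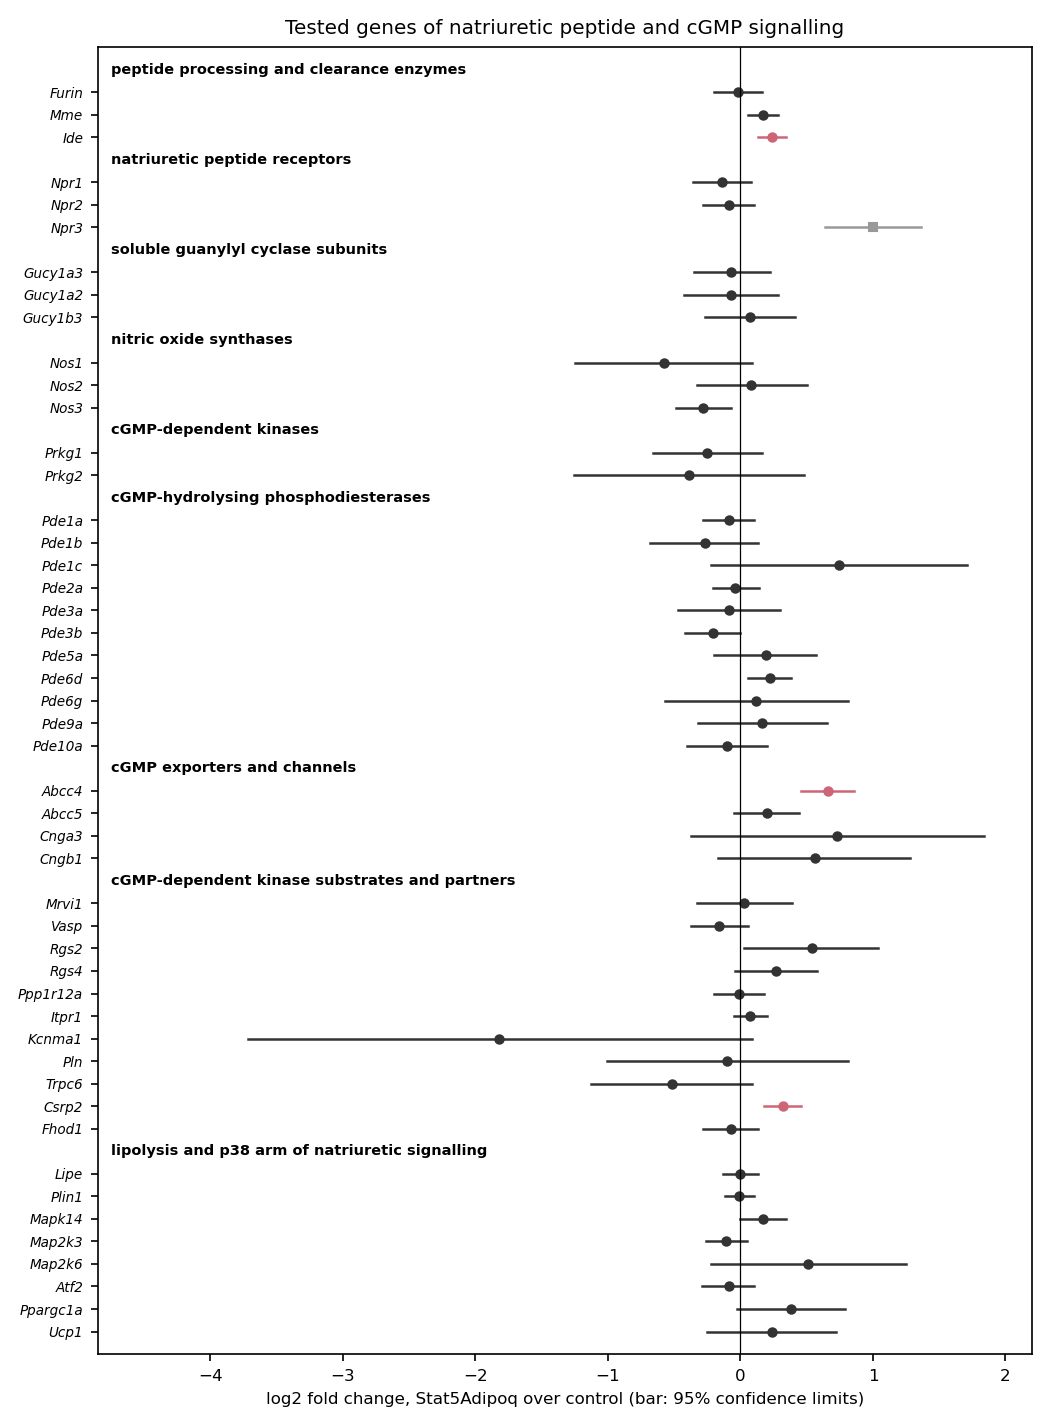
Log2 fold change, Stat5Adipoq over control, of each tested gene of the pathway list by role, with bars for 95% confidence limits. Red marks the 3 genes called by edgeR (Abcc4, Ide and Csrp2), the grey square is Npr3, which was not tested, and black marks genes not called. The limits of all 5 other members include 0.

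The genes whose profile over the 10 libraries was most like that of Npr3 were found among 10151 other tested genes with at least 50 counts on average, by the root mean square difference of log2 CPM after subtraction of each gene's mean. They were Camk2b (0.24), F2r (0.26), Ninl (0.27), Mreg (0.28) and Tpd52l1 (0.28), where the median over all genes was 0.59. Camk2b, a subunit of a calcium-dependent kinase, was at 30.2 ± 5.66 CPM in controls and 53.3 ± 3.85 CPM in Stat5Adipoq mice. F2r, a thrombin receptor, was at 11.7 ± 1.05 and 21.3 ± 1.9 CPM. Ninl was at 12.9 ± 2.75 and 22.2 ± 3.47 CPM, Mreg at 4.26 ± 0.931 and 8.41 ± 2.07 CPM, and Tpd52l1 at 5.25 ± 0.968 and 8.37 ± 1.45 CPM. Since likeness to Npr3 selects genes with the same difference between genotypes, these differences carry no test. In 4 of the 5 all Stat5Adipoq mice lay above all controls, and Tpd52l1 overlapped.

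**Figure D4:**
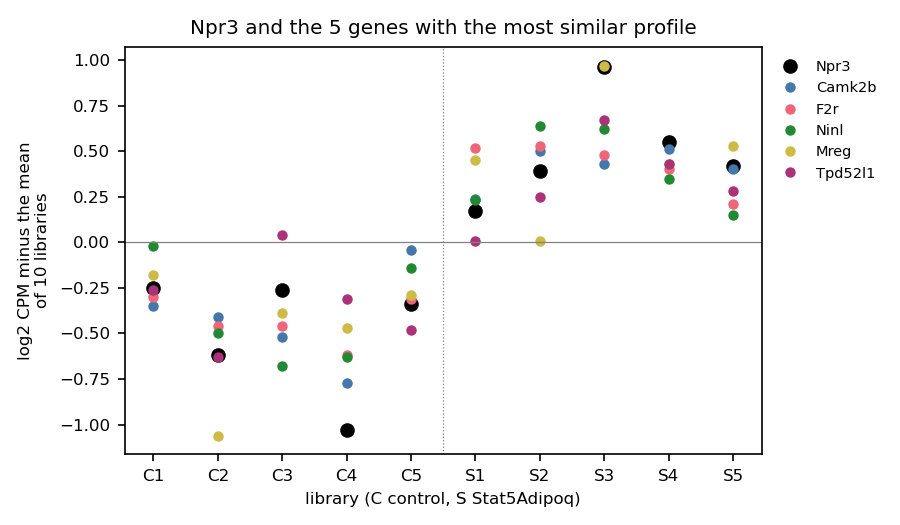
Log2 CPM minus the gene's mean over 10 libraries, for Npr3 (large black points) and the 5 genes with the most similar profile, in each library (C, control; S, Stat5Adipoq; 1 to 5, replicates). The dotted line parts the genotypes, and Npr3 lies below 0 in all 5 controls and above 0 in all 5 Stat5Adipoq mice.

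The surroundings of Npr3 on chromosome 15 were compared as well. Within 500 kb, 23 other genes are annotated and 9 were tested, of which 0 were called by edgeR, against 2.71% of all tested genes, and 3 had an unadjusted p under 0.05, against 15.2%. Their log2 fold changes ran from -0.45 to 0.66, and the lowest adjusted p was 0.24. The 3 genes, named after their values were seen, were Sub1 (51.2 ± 3.75 and 46.0 ± 1.27 CPM), Adamts12 (15.8 ± 2.32 and 11.6 ± 3.91 CPM) and Gm5144. Gm5144, which overlaps Npr3 on the opposite strand, was at 1.32 ± 0.245 and 1.96 ± 0.534 CPM, with a log2 fold change of 0.59 and an edgeR adjusted p of 0.28.

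Genes of this group are also known in vessels and stroma, so markers of these cells are given beside the 6 genes. Over all tested genes 2.71% were called, which is the share to set beside the counts of each list. The 12 markers of vascular smooth muscle and pericytes summed to 1052.9 to 1144.3 CPM in controls and 1052.4 to 1223.6 CPM in Stat5Adipoq mice, with 0 called and 6 above and 6 below 0. The 10 fibroblast markers summed to 1068.7 to 2092.2 and 1062.1 to 2026.5 CPM, and the 7 macrophage markers to 115.4 to 151.2 and 94.0 to 129.6 CPM, with 0 called in either. Of the fibroblast markers 3 were above and 7 below 0, and of the macrophage markers 1 was above and 6 below. Of the brown adipocyte markers, 1 of 9 was called, Cox7a1, at 387.5 ± 17.3 and 474.8 ± 44.3 CPM. Lists of other tissues moved in part. Of the Schwann cell markers S100b was called higher, 5 of 6 were below 0, and the summed level was 179.5 to 558.3 and 242.5 to 354.6 CPM. Of the liver markers 7 of 7 tested were below 0 and Cyp2e1, which made up most of their sum, was called lower, at 125.1 ± 56.5 and 39.5 ± 24.0 CPM. The other 7 listed liver markers summed to 89.8 CPM in control replicate 3, 1.83 to 2.49 CPM in the other controls and 1.32 to 6.41 CPM in Stat5Adipoq mice. Skeletal muscle markers were below 0 in 8 of 8, with 0 called, and control replicates 1, 3 and 5 lay above all Stat5Adipoq mice in their sum. The 7 T and B cell markers, of which 4 were tested, summed to 4.81 to 6.99 and 2.95 to 5.7 CPM. The white adipocyte markers summed to 18.2 to 44.0 and 18.8 to 50.8 CPM, with Tcf21 at 0 in all libraries, and 0 were called in either list. The part of these cells in the levels of the 6 genes was not tested.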

How the data were processed

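The authors aligned single reads of 50 bases to GRCm38 with STAR 2.5.0b and counted them over exons with featureCounts 1.5.0-p1. The deposited values are raw counts per gene, listed by Entrez identifier. The authors' deposited table of the comparison was used only for gene symbols. Its fold changes and p-values from DESeq2 1.16.1 were not used, nor were subsets of it. Samples were grouped by their labels.

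Genes with a size factor normalized row sum above 45 were kept, as in the study's methods, which left 13568 of 24454. Genotypes were compared with edgeR 4.0.16 (quasi-likelihood test, TMM, no covariate, R 4.3.3), with Benjamini-Hochberg adjustment over all tested genes and a threshold of 0.05, which replaced DESeq2, the tool of the study. The procedure was tested on simulated data. For the 5 members other than Npr3, log2 CPM was in addition compared by an exact permutation test, two-sided, over the 252 possible assignments (scipy 1.17.1). Alternatives were DESeq2 1.42.0, its size factors, library size only, limma-voom (limma 3.58.1), 2 other filters, a replicate block and leaving out each library. The use of shortest transcripts was chosen after seeing the data. The members and lists were chosen with earlier results of these data known. Genes named are the members, the deleted genes, pathway genes with an unadjusted p under 0.05, the 2 most abundant genes in each role, the 5 genes most like Npr3, and markers where they bear on a member. Nppb, Nppc and genes that overlap or neighbour a member were added to complete their groups. Exon lengths come from the GENCODE annotation and promoters from RefSeq, both on GRCm38. Depth was 8488129 to 19514904 counts per library, no pair of which agreed within sampling noise (lowest chi-square per gene 5.31). Each library is a separate mouse.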

Additional observations from a re-analysis of the deposited data

Results flagged for a closer look

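Abcc4 in Stat5Adipoq replicate 4 was at 50.4 CPM, apart from the other 4 Stat5Adipoq mice at 58.6 to 60.7 CPM (its gap to the nearest of them was 0.797 of the range of the group). It was the 1 group of 46 examined with a sample this far from the rest, where chance gives about 1 in 20, or 2.3. The value still lay above all controls.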

How the results depend on the processing

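In the 17 alternatives Npr3 kept its direction, with a log2 fold change of 0.86 to 1.07, and 0 of the 5 other members were called. Npr3 was picked for this rise, so its range is a description and supports nothing further. Pathway genes called lower stayed at 0. The count of called genes was 368, and 660 with DESeq2. It ranged from 185 to 443 when single libraries were left out, and was 224, 213 and 221 without control replicates 1, 2 and 4, and 185, 193 and 191 without Stat5Adipoq replicates 3, 4 and 5. The pathway genes called higher numbered 3, and 1 to 3 when single libraries were left out, with 1 without control replicates 2 or 4 or Stat5Adipoq replicates 2 or 3. The cause of these losses was not tested, although each such fit holds fewer samples. With the replicate block 1 pathway gene was called higher, and 273 genes in all, of which 230 were among the 368. The replicate numbers gave no sign of pairing. Same-numbered deviations correlated at -0.26, 0.151, -0.154, 0.117 and -0.196, and only replicate 2 had its own number as best partner. With so few libraries per group this check cannot exclude pairing. With shortest transcripts the Npr3 to Npr1 ratio was 2.56 in controls and 5.37 in Stat5Adipoq mice. Among the 6 members Prkg1 and Pde5a had the fewest counts, with 28 and 30 in their lowest library, and genes below the filter were not compared.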
